A study of Mus musculus with 19 samples.

Results

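The 10 genes described here encode enzymes, a kinase and a carrier of branched-chain amino acid (BCAA) catabolism, and they were chosen by name as listed symbols: *Bcat1*, *Bcat2*, *Slc25a44*, *Bckdha*, *Bckdhb*, *Dbt*, *Bckdk*, *Ivd*, *Acadsb* and *Hibadh*. All 10 were found in each of the 3 deposited RNA-Seq tables, which list 55573 genes for 7 tissues, 13756 genes for inguinal white adipose tissue (iWAT) and 55487 genes for brown adipose tissue (BAT). The 7-tissue table holds 1 library each of brain, heart, tibialis anterior (TA) muscle, small intestine, liver, BAT and a white adipose depot that is not named, all from C57BL/6J wild-type (WT) mice on chow, with no cold treatment in the labels. The iWAT and BAT tables each hold 3 WT and 3 MCK-Musclin libraries, 12 in all, from male mice fed chow. Mice of both genotypes, WT controls included, were aged 5 months and had been kept at 8°C for 1 week. MCK-Musclin mice carry the Musclin (*Ostn*) coding sequence under the muscle creatine kinase (MCK) promoter, which is active in striated muscle, and the founder line behind these libraries is not given in the sources used here. The study asked what muscle overexpression of Musclin, a secreted peptide, changes in adipose tissue of cold-exposed mice.

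Leucine, isoleucine and valine are first transaminated by the branched-chain aminotransferases, cytosolic BCAT1 and mitochondrial BCAT2, and SLC25A44 carries the amino acids into mitochondria. The resulting keto acids are decarboxylated by the branched-chain keto acid dehydrogenase (BCKDH) complex, built from the E1 subunits BCKDHA and BCKDHB, the E2 subunit DBT and the shared E3 subunit DLD. The kinase BCKDK switches the complex off by phosphorylating BCKDHA, and the phosphatase PPM1K switches it on. The arms then part: IVD acts in leucine breakdown, ACADSB in isoleucine breakdown and HIBADH in valine breakdown. Skeletal muscle is known for high transaminase activity, liver for high dehydrogenase and low transaminase activity, and brown fat for burning BCAA in the cold.

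Values are FPKM, fragment counts scaled to exon length and library size, so levels of different genes can be set side by side within a library. In each tissue library the markers of the labelled tissue had the highest summed FPKM of the 7, with muscle markers at 140756 in TA muscle, liver markers at 34541 in liver and general adipocyte markers at 15652 in white adipose tissue. The transgene check held in BAT, where *Ostn* was listed at 0 in every WT library and at 37.9, 31.6 and 30.3 FPKM in the MCK-Musclin libraries. In iWAT *Ostn* was listed at 0, 0 and 0.225 FPKM in WT, and at 5.17 and 4.21 in MCK-Musclin libraries 2 and 3, but at 0 in the library labelled MCK-Musclin 1. That library also had skeletal muscle markers summing to 11.2 FPKM, against 161 and 191 in libraries 2 and 3. As the transgene has a muscle promoter, the 0 cannot tell whether the label is right, and a link to muscle RNA was not tested. Summed FPKM was 364710 to 384104 in the iWAT libraries and 676362 to 720852 in the BAT libraries, and read depth cannot be told from these files.

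In cold-exposed iWAT, *Bckdha*, *Bckdhb*, *Dbt* and *Hibadh* had lower levels in every MCK-Musclin library than in any WT library, as did 5.44% of all genes tested, while the other 5 members tested overlapped between genotypes. Centring the libraries on adipocyte markers reduced the 4 to 0, but it shifted the medians of the members and of all genes upward together. The share of all genes without overlap after centring is not given here. Adipocyte, B cell and T cell markers differed between the same libraries, with values given below. No member passed the adjusted threshold in either tissue. Promoter windows are shown for *Bckdha*, *Bckdhb* and *Hibadh*, and for *Ivd* as a member whose iWAT groups overlapped and whose window held most copies of the box searched. They are RefSeq sequences of GRCm38.p6, 300 bases each with the start near the 3′ end, 5′ to 3′ on the strand of the gene, with CCAAT boxes on either strand in capitals (CCAAT or, on the other strand, ATTGG). *Dbt* is not in the promoter table.
Bckdha, chr7:25658712-25659011, minus strand: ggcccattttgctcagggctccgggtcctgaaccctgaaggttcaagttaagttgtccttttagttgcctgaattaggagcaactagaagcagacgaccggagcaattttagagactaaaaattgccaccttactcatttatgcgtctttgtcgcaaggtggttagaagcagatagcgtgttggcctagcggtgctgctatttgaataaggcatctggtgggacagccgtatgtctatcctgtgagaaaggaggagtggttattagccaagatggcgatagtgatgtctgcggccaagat
Bckdhb, chr9:83924887-83925186, plus strand: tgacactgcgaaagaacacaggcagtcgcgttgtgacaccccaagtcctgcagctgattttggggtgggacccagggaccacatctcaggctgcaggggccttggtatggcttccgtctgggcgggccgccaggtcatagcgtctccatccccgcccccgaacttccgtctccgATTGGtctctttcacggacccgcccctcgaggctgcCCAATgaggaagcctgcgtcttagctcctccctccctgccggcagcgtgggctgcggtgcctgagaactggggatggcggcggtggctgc
Hibadh, chr6:52640251-52640550, minus strand: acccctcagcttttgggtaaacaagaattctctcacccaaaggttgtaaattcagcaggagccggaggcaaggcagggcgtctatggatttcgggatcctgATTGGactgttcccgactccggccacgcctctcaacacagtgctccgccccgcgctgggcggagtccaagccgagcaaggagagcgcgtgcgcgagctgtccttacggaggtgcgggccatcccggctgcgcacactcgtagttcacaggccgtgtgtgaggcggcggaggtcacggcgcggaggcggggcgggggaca
Ivd, chr2:118861744-118862043, plus strand: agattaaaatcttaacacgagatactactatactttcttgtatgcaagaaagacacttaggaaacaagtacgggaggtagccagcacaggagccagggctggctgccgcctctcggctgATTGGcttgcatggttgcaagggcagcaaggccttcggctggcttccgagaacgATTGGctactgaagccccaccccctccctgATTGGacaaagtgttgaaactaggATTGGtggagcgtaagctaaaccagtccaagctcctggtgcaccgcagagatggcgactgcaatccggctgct

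The window of *Bckdha* held no CCAAT, that of *Bckdhb* held 2 and that of *Hibadh* held 1. The *Ivd* window held 4, all on the opposite strand. Of the 11 windows of the 8 members with an entry, 6 held the box at least once, against 37.4% of all 32851 promoter windows. TATAAA, searched on both strands as well, was in 1 window each of *Bcat1* and *Bckdk* and in 13.6% of all windows. The orphan nuclear receptor motif TNAAGGTCA was in no member window and in 1.28% of all. An NRF1-like pattern that allows any base at a single position, and so is not a palindrome, was searched on both strands. That pattern was in the *Hibadh* window alone among the members and in 4.603% of all. These matches describe letters in a window and not bound sites.

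Across the 7 tissues, the genes from the BCKDH complex onward, the kinase apart, had their 2 lowest FPKM values in brain and small intestine. Their highest tissue differed. The aminotransferases, the carrier and the kinase had other orders. With 1 library per tissue there is no replicate error, no difference between neighbouring tissues can be tested, and all values here are levels in FPKM. RNA of white fat was extracted with a kit and that of the other 6 tissues with TRIzol, so tissue and extraction cannot be told apart for white fat.

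*Bcat1* was a brain gene in this set, at 17.0 FPKM in brain, 3.45 in white adipose tissue, 0.138 in BAT, 0.046 in small intestine and 0.0374 in heart, and it was listed at 0 in liver and TA muscle. *Bcat2* was at 47.7 in white adipose tissue, 22.4 in BAT, 17.3 in both TA muscle and heart, 5.58 in small intestine, 3.68 in liver and 2.24 in brain. The isoforms stood at opposite ends of the tissue order in brain, which was the highest tissue for *Bcat1* and the lowest for *Bcat2*. White adipose tissue was among the 2 highest for both. *Bcat1* made up 88.4% of the summed aminotransferase FPKM in brain, 6.75% in white adipose tissue and less than 1% in each of the other 5. Exons of *Bcat2* share 622 of 3900 bases with the antisense gene *0610005C13Rik*, which was at 81.1 FPKM in liver and 40.6 in small intestine, and the authors' alignment did not use strand. In those 2 tissues reads of either gene cannot be told apart over that stretch. *Slc25a44*, the carrier, was at 17.5 in BAT, 17.0 in liver, 14.5 in brain, 9.99 in white adipose tissue, 5.28 in TA muscle, 5.26 in small intestine and 1.85 in heart. BAT, liver and brain thus led, and after rescaling to TPM brain came first.

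The E1α gene *Bckdha* was at 82.4 FPKM in BAT, 55.0 in white adipose tissue, 54.2 in heart, 47.7 in liver, 36.0 in TA muscle, 10.4 in small intestine and 7.63 in brain. *Bckdhb* was at 60.3 in BAT, 52.3 in white adipose tissue, 42.5 in liver, 23.0 in heart, 15.4 in TA muscle, 12.5 in brain and 4.51 in small intestine. The E2 gene *Dbt* was at 41.0 in BAT, 38.0 in liver, 35.9 in white adipose tissue, 23.6 in heart, 10.4 in TA muscle, 9.89 in small intestine and 7.96 in brain. Both fat depots and liver were thus the top 3 for *Bckdhb* and *Dbt*, and heart stood with them for *Bckdha*. Heart, TA muscle and small intestine had *Bckdha* at 2.298 to 2.36 times *Bckdhb*, whereas brain had it at 0.609 times. *Bckdha* shares 1171 of its 1899 exonic bases with *B3gnt8* on the opposite strand, but *B3gnt8* was at most 0.965 FPKM in any of the 7 tissues.

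The kinase gene *Bckdk* had another order, at 18.7 FPKM in TA muscle, 13.9 in BAT, 9.96 in heart, 9.82 in white adipose tissue, 5.91 in small intestine, 5.03 in brain and 1.90 in liver. Liver thus combined the lowest *Bckdk* level with a *Bckdha* level near that of heart and white fat. The ratio of *Bckdk* to *Bckdha* was 0.0399 in liver, 0.169 in BAT, 0.179 in white adipose tissue and 0.184 in heart, and it was 0.520 in TA muscle, 0.571 in small intestine and 0.659 in brain. The ratio of *Bcat2* to *Bckdha*, the first step over the second, was 0.867 in white adipose tissue, 0.539 in small intestine, 0.481 in TA muscle, 0.318 in heart, 0.293 in brain, 0.272 in BAT and 0.0770 in liver. Ratios within a library do not depend on how libraries were scaled to each other.

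**Figure D1:**
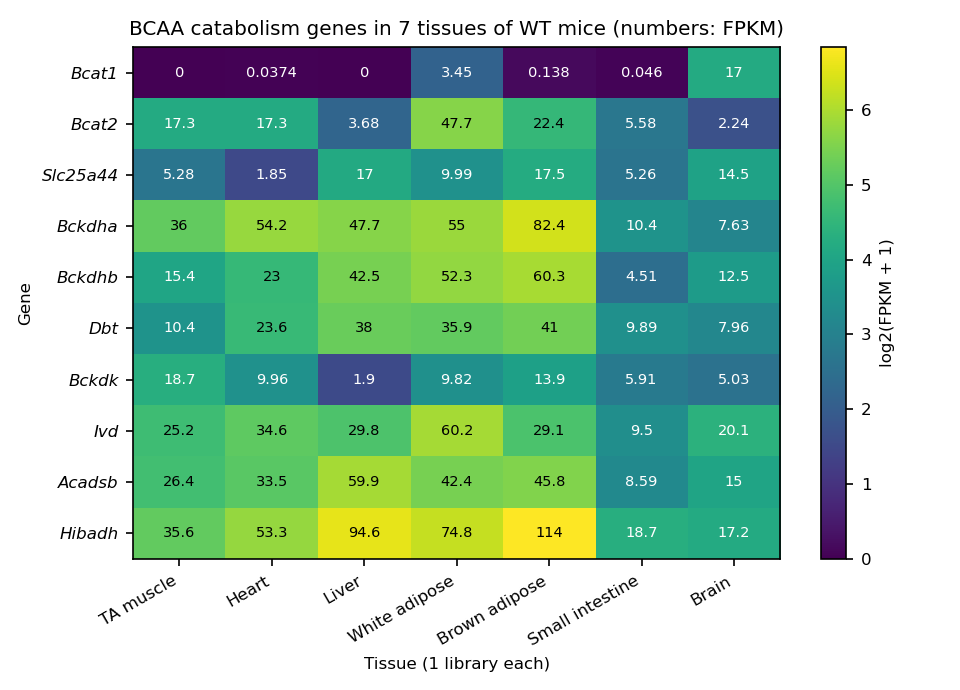
FPKM of the 10 genes (rows) in 1 library of each of 7 tissues (columns), with the value printed in each cell and the colour showing log2(FPKM + 1). *Bcat1* is high in brain alone at 17.0, *Bcat2* is highest in white adipose tissue at 47.7, and the genes from *Bckdha* to *Hibadh* other than *Bckdk* have their 2 lowest FPKM values in brain and small intestine, an order that TPM changes for *Bckdhb*, *Dbt* and *Ivd*.

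Among the arm-specific enzymes, *Ivd*, the isovaleryl-CoA dehydrogenase, was at 60.2 FPKM in white adipose tissue, 34.6 in heart, 29.8 in liver, 29.1 in BAT, 25.2 in TA muscle, 20.1 in brain and 9.50 in small intestine. *Acadsb*, which oxidizes 2-methylbutyryl-CoA, was at 59.9 in liver, 45.8 in BAT, 42.4 in white adipose tissue, 33.5 in heart, 26.4 in TA muscle, 15.0 in brain and 8.59 in small intestine. *Hibadh*, the 3-hydroxyisobutyrate dehydrogenase, was at 114 in BAT, 94.6 in liver, 74.8 in white adipose tissue, 53.3 in heart, 35.6 in TA muscle, 18.7 in small intestine and 17.2 in brain. The leucine-arm gene thus peaked in white fat, the isoleucine-arm gene in liver and the valine-arm gene in BAT as deposited, or in white fat after rescaling to TPM. In FPKM, brain and small intestine were the 2 lowest tissues for each of the 6 genes *Bckdha*, *Bckdhb*, *Dbt*, *Ivd*, *Acadsb* and *Hibadh*, whereas in TPM small intestine stayed among the 2 lowest for all 6 but TA muscle took the place of brain for *Bckdhb* and *Dbt*, and BAT did for *Ivd*.

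As deposited, BAT was the highest tissue for 5 of the 10 members and among the top 2 for 8. This order depends on scaling: the 10 most abundant genes took 52.4% of summed FPKM in BAT and 17.0% in white adipose tissue. After each library was rescaled to the same sum (TPM), white adipose tissue was the highest for 6 members and BAT for 0. *Bckdha*, *Bckdhb*, *Dbt* and *Hibadh* then moved from BAT to white adipose tissue, and *Slc25a44* moved from BAT to brain. *Bcat1*, *Bcat2*, *Bckdk*, *Ivd* and *Acadsb* kept their highest tissue.

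The 6 genes were also set against another mitochondrial pathway in the same library. Their geometric mean was 0.883 times that of 14 tricarboxylic acid (TCA) cycle genes in liver and 0.751 times in white adipose tissue. In brain the ratio was 0.284, in heart 0.204, in BAT 0.192, in TA muscle 0.173 and in small intestine 0.0811. The geometric mean of the 6 genes was 56.0 FPKM in BAT and 52.0 in white adipose tissue as deposited, but 78.7 and 124 after rescaling to TPM. That of the TCA cycle genes was 292 and 69.2 FPKM, or 409.8 and 165 in TPM.

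**Figure D2:**
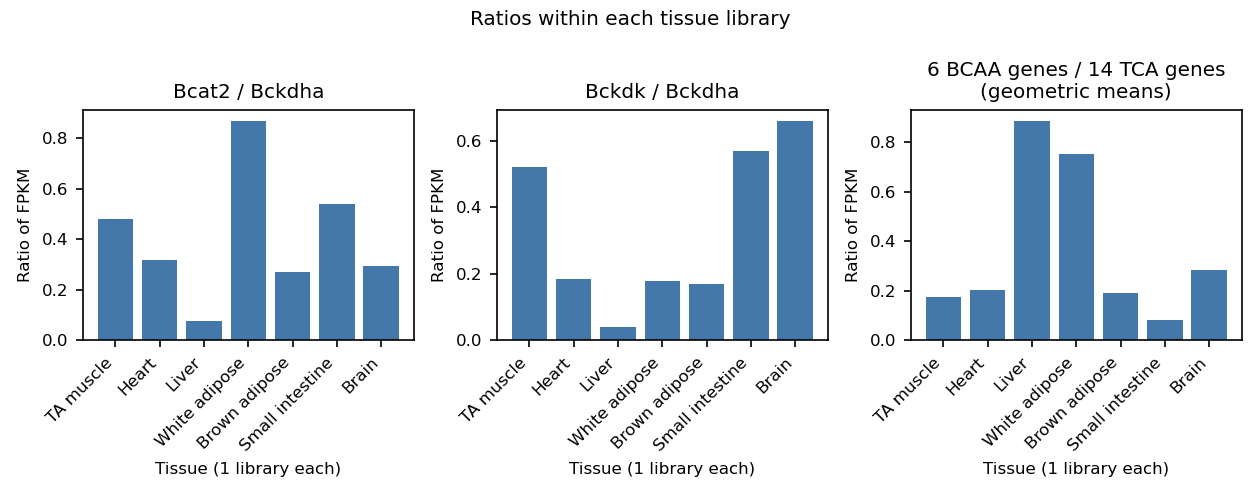
Ratios of FPKM within each of the 7 tissue libraries, 1 bar per library: *Bcat2* to *Bckdha*, *Bckdk* to *Bckdha*, and the geometric mean of 6 BCAA genes to that of 14 TCA cycle genes. Liver is lowest in the first 2 panels at 0.0770 and 0.0399, and liver and white adipose tissue stand above the other 5 in the third at 0.883 and 0.751.

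Correlations of log2(FPKM + 1) over the 7 tissues are descriptions of 7 libraries that share normalization. Over the 15 pairs of the 6 genes Pearson r ranged from 0.70 to 0.96, with a median of 0.88, and *Dbt* with *Hibadh* was the closest pair. *Bckdk* had r between -0.07 and 0.34 with them, and *Bcat2* between 0.44 and 0.72. *Bcat1* had r from -0.52 to 0.37 with the other 9. Among 14692 genes, the 3 with the pattern most like *Bcat2* were *Lgals1* (0.98), *Myct1* (0.98) and *C1qtnf9* (0.97), and those most like *Bckdha* were *Cish* (0.99), *Cbr4* (0.96) and *Pttg1* (0.96).

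In cold-exposed iWAT, 9 of the 10 members passed the filter of a mean FPKM of at least 1 over the 6 libraries. *Bcat1* did not, with WT libraries at 0.256, 0.318 and 0.868 and MCK-Musclin libraries at 1.02, 1.82 and 0.388, which overlapped. Genotypes were compared with limma on log2(FPKM + 1), and all fold changes below are on that log2 scale as MCK-Musclin minus WT. No member had an adjusted p under 0.05, where 0% of the 12197 genes tested did. The cutoff used for iWAT in the study (p under 0.05 before adjustment, absolute log2 fold change over 0.5) was passed by 0 members, where 5.94% of genes passed it, 0.902% lower and 5.04% higher. The study applied its cutoffs to DESeq2 results, and here they were applied to limma results, in iWAT and BAT alike. At an unadjusted p under 0.05 alone, 3 members were lower and 0 higher, where 3.44% of genes were lower and 13.1% higher. Groups did not overlap for 4 members, all lower in MCK-Musclin, where 5.44% of genes were lower without overlap. The median log2 fold change of the 9 was -0.22, against 0.06 over all genes tested, and 7 of 9 were below 0, where 38.7% of all genes were.

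*Hibadh* (chr6:52546228-52640389, minus strand) was at 67.3, 67.2 and 69.7 FPKM in the WT libraries and at 57.5, 56.7 and 56.0 in the MCK-Musclin libraries. The 3 MCK-Musclin values lay close together and well under the lowest WT value. The group means were 68.1 ± 1.45 and 56.7 ± 0.779 (SD, n = 3 each), and the log2 fold change was -0.26 (SE 0.080) with an unadjusted limma p of 0.0138 and an adjusted p of 0.196. Its 95% interval ran from -0.45 to -0.07.

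*Bckdha* (chr7:25629946-25658981, minus strand) was at 37.3, 37.1 and 38.7 in WT and at 34.0, 30.4 and 32.2 in MCK-Musclin iWAT. All MCK-Musclin values were under all WT values, with means of 37.7 ± 0.847 and 32.2 ± 1.80. The log2 fold change was -0.22 (SE 0.087; limma, adjusted p = 0.269). Its overlapping neighbour *B3gnt8* was at 0.546 to 1.28 FPKM in WT and 1.28 to 2.06 in MCK-Musclin libraries.

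*Bckdhb* (chr9:83925145-84124240, plus strand) was at 45.8, 45.4 and 53.2 in WT and at 40.7, 41.0 and 39.2 in MCK-Musclin iWAT, so that WT library 3 was the highest and the MCK-Musclin values were within a narrow band below. The log2 fold change was -0.25 (SE 0.097; limma, adjusted p = 0.271). *Dbt* (chr3:116513070-116549981, plus strand) was at 53.0, 52.2 and 59.9 in WT and at 49.0, 42.9 and 48.9 in MCK-Musclin libraries. Its groups did not overlap either, but the limma p was 0.0607 (adjusted p = 0.323) with a log2 fold change of -0.23 (SE 0.10). The 3 subunit genes thus stood lower side by side. The ratio of *Bckdha* to *Bckdhb* overlapped between genotypes, at 0.786 ± 0.0521 in WT and 0.799 ± 0.0511 in MCK-Musclin iWAT (SD, n = 3 each).

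The other 5 members tested had overlapping groups. *Bcat2* was at 50.4, 37.3 and 56.3 in WT and at 48.8, 43.7 and 51.2 in MCK-Musclin iWAT, with means of 48.0 and 47.9 and a 95% interval of the log2 difference from -0.36 to 0.39. *Ivd* was at 73.3, 104.8 and 80.2 in WT and at 83.6, 71.2 and 87.1 in MCK-Musclin libraries, with a log2 fold change of -0.08. *Acadsb* was at 65.3, 56.1 and 34.8 in WT and at 52.1, 48.1 and 53.5 in MCK-Musclin libraries. Its WT library 3 was the lowest of all 6, and the sign of its difference of 0.02 rested on single libraries. *Bckdk* was at 8.78, 10.5 and 8.95 in WT and at 11.1, 9.22 and 6.70 in MCK-Musclin libraries. *Slc25a44* was the most variable, at 19.7, 7.25 and 9.27 in WT and at 5.78, 10.3 and 12.8 in MCK-Musclin libraries, with a 95% interval from -1.14 to 0.65 on the log2 scale.

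**Figure D3:**
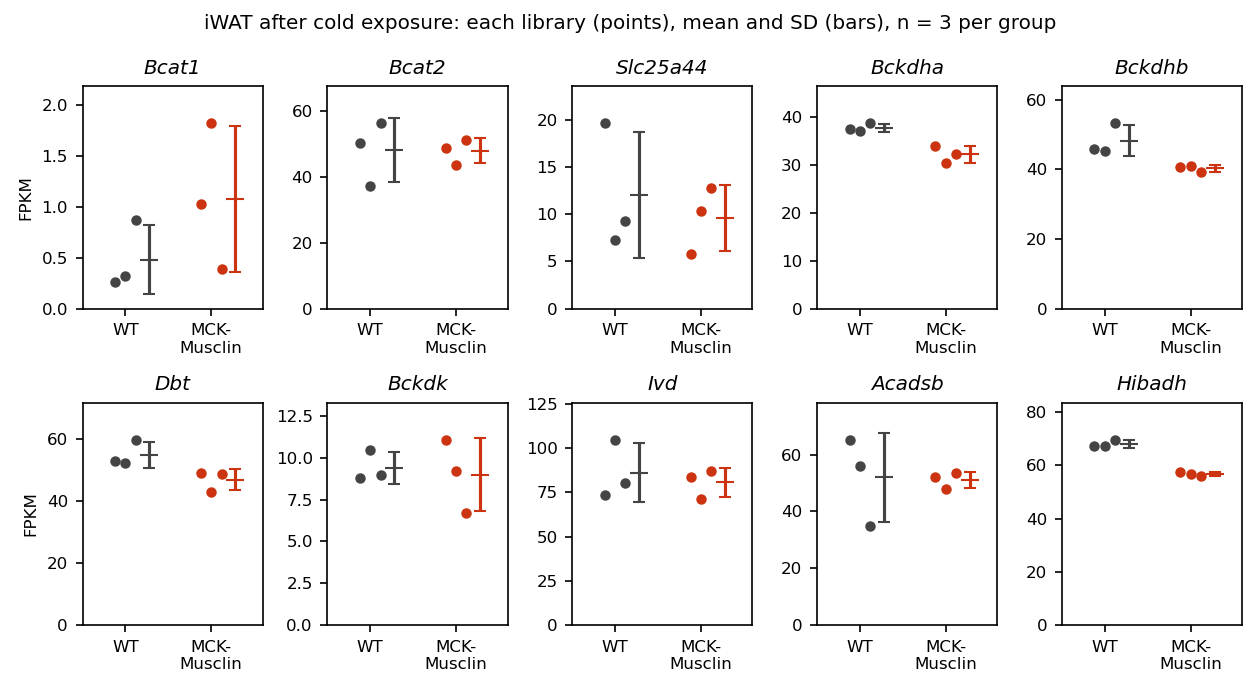
FPKM of the 10 genes in cold-exposed iWAT, with 1 point per library for 3 WT (grey) and 3 MCK-Musclin (red) mice and the mean ± SD beside the points, each panel on its own axis from 0. *Bckdha*, *Bckdhb*, *Dbt* and *Hibadh* have all MCK-Musclin points below all WT points, and the other 6 panels overlap.

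The kinase relative to its substrate gave a log2 ratio of *Bckdk* to *Bckdha* of -2.01 ± 0.161 in WT and -1.87 ± 0.350 in MCK-Musclin iWAT (SD, n = 3 each), a difference of 0.14 with an exact two-sided permutation p of 0.6, where 0.1 is the smallest p that 3 against 3 can give. In BAT the values were -3.18 ± 0.133 and -3.16 ± 0.217, with an exact permutation p of 0.9.

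The size of the members' differences in iWAT, and for some members the sign, depended on what the libraries were scaled to. Centring takes the same value from every gene of a library, so the members moved together with all genes. With TPM, median-ratio scaling or quantile normalization all 9 members tested were below 0, with medians of -0.28, -0.30 and -0.28, and 4 had an unadjusted limma p under 0.05. The medians and shares of all genes under these 3 scalings are not given here, so the counts cannot be set against them. With libraries centred on 10 general adipocyte markers, the median of all genes moved from 0.06 to 0.26 and that of the members from -0.22 to -0.02, with 0 members lower at an unadjusted limma p under 0.05 and 0 lower without overlap. The log2 fold changes of *Hibadh*, *Bckdha*, *Bckdhb* and *Dbt* relative to these markers were -0.055, -0.020, -0.043 and -0.022, each with a 95% interval on both sides of 0. Fewer cells of a type and less RNA per cell cannot be told apart in bulk tissue. The markers were *Adipoq*, *Plin1*, *Fabp4*, *Cidec*, *Lipe*, *Pnpla2*, *Lep*, *Retn*, *Cfd* and *Pparg*. The authors report *Lipe* (*Hsl*) and *Pnpla2* (*Atgl*) as lowered by Musclin in cultured adipocytes. Centring on these markers could thus also remove a genotype difference within adipocytes, which was not tested.

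Markers of several cell types differed between the same libraries. All 10 general adipocyte markers were detected in every iWAT library, and their mean log2(FPKM + 1) was 9.54 to 9.58 in WT and 9.21 to 9.49 in MCK-Musclin libraries. The 4 B cell markers summed to 109 to 211 FPKM in WT and 239 to 326 in MCK-Musclin libraries, and the 5 T cell markers to 77.5 to 125 and 151 to 195. The 4 macrophage markers summed to 123.2 to 144 and 137 to 189, which overlapped. The 11 skeletal muscle markers summed to 11.1, 833 and 4668 in WT libraries 1 to 3 and to 11.2, 161 and 191 in MCK-Musclin libraries 1 to 3, with 2 markers at 0 in each library numbered 1. The part of these markers in the members' differences was not tested. Without WT library 3, which had the highest muscle signal, the log2 fold changes of *Hibadh*, *Bckdha*, *Bckdhb* and *Dbt* were -0.24, -0.21, -0.17 and -0.16. In that fit 1 member instead of 3 had an unadjusted limma p under 0.05 (also 1 without MCK-Musclin library 2 or 3). Without MCK-Musclin library 1, which listed *Ostn* at 0, the log2 fold changes were -0.27, -0.26, -0.25 and -0.26, with 2 members under that p. Fewer libraries weaken the test of every gene. The share of all genes in these fits is not given here, so the counts cannot be set against it.

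The other genes of the pathway were described from a list of 23, of which 22 were tested in iWAT and *Mmut* was not in that table. None passed the adjusted threshold, 17 of 22 were below 0, where 38.7% of all genes were, and the median was -0.21, against 0.06 over all genes. At an unadjusted limma p under 0.05, 8 were lower and 2 higher, where 3.44% of all genes were lower and 13.1% higher. Without overlap 10 were lower and 2 higher, where 5.44% of all genes were lower and 17.9% higher. The count of 8 was 5 when WT library 3 was left out and 4 when MCK-Musclin library 3 was. Centred on adipocyte markers, 13 of the 22 were below 0 and 0 were lower at that p. The shares of all genes under these alternatives are not given here, so these counts cannot be set against them. The valine arm held *Aldh6a1*, the methylmalonate semialdehyde dehydrogenase, at 124, 126 and 134 FPKM in WT and 105, 98.4 and 101 in MCK-Musclin libraries, the smallest adjusted p of the list (log2 fold change -0.33, limma adjusted p = 0.158). *Hibch*, the step before *Hibadh*, was at 134, 143 and 149 in WT and 122, 116 and 111 in MCK-Musclin iWAT. The 3 successive valine enzyme genes *Hibch*, *Hibadh* and *Aldh6a1* thus each had groups without overlap.

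The propionyl-CoA carboxylase genes *Pcca* and *Pccb*, which take up the carbon of valine and isoleucine, had log2 fold changes of -0.35 and -0.32, and both had groups that did not overlap. *Hadha* (-0.61) and *Hadhb* (-0.71), which also encode the trifunctional protein of fatty acid oxidation, were the 2 of the 22 past the cutoff of the study. *Hadhb* was at 44.6, 46.1 and 53.9 FPKM in WT and at 39.5, 27.6 and 22.4 in MCK-Musclin libraries. MCK-Musclin library 1 thus lay nearer to WT than the other MCK-Musclin libraries. In the leucine arm *Mccc1* (-0.20) and *Auh* (-0.06) overlapped, and *Mccc2* (-0.20) did not.

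A pair of genes stood higher in iWAT of MCK-Musclin mice. *Ppm1k*, the phosphatase that activates the BCKDH complex, was at 2.92, 2.67 and 2.51 FPKM in WT and at 3.76, 3.54 and 3.51 in MCK-Musclin libraries, 0.32 higher on the log2 scale (SE 0.11, limma adjusted p = 0.217). *Slc7a5*, the large neutral amino acid transporter of the plasma membrane, was at 2.48, 2.02 and 1.79 in WT and at 3.11, 2.80 and 3.45 in MCK-Musclin libraries, 0.42 higher on the log2 scale (limma adjusted p = 0.201). For both genes the groups did not overlap, in a table where 17.9% of genes were higher without overlap. The ratio of *Bckdk* to *Ppm1k*, kinase over phosphatase, was 3.01 to 3.94 in WT and 1.91 to 2.95 in MCK-Musclin iWAT, and 2.62 to 4.58 and 3.26 to 4.44 in BAT. It was chosen after its values were seen and was not tested. *Klf15*, a transcription factor that activates BCAA catabolic genes in muscle, was lower without overlap, at 24.8, 22.2 and 27.3 in WT and 18.8, 20.1 and 19.9 in MCK-Musclin iWAT (limma adjusted p = 0.210).

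The TCA cycle list gave a comparison from the same libraries, with all 14 genes below 0 and a median of -0.33 (12 below 0 when centred on adipocyte markers), and the pyruvate dehydrogenase list had 9 of 10 below 0 and a median of -0.36. Over the TCA cycle genes the geometric mean was 109 to 116 FPKM in WT and 77.1 to 104 in MCK-Musclin iWAT, and over the 6 BCAA genes it was 53.7 to 57.1 and 46.7 to 50.7. The ratio of the 6 to the 14 was 0.461 to 0.508 in WT and 0.487 to 0.652 in MCK-Musclin libraries, which overlapped. The 7 brown and beige markers in the table summed to 568, 898 and 1063 in WT libraries 1 to 3 and to 641, 221 and 115 in MCK-Musclin libraries 1 to 3, so that MCK-Musclin library 1 lay within the WT range for these markers. For *Hibadh*, *Bckdha*, *Bckdhb* and *Dbt* that library was below every WT library. This follows from how these genes were singled out, by groups without overlap, and is no separate result.

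In cold-exposed BAT, 9 of the 10 members were tested, and *Acadsb* alone differed beyond the cutoff of the study for BAT (p under 0.05 before adjustment, absolute log2 fold change over 0.3). It was at 32.6, 32.6 and 38.3 FPKM in WT and at 49.9, 44.7 and 50.4 in MCK-Musclin libraries, with no overlap, where 4.38% of genes were higher and 5.63% lower without overlap. The means were 34.5 ± 3.29 and 48.3 ± 3.16 (SD, n = 3 each), and the log2 fold change was 0.47 (SE 0.10) with an unadjusted limma p of 0.00195. The adjusted p was 0.929 over 10893 genes, so it did not pass the correction. Past that cutoff lay 1 member of 9, higher, where 1.85% of all genes were higher and 2.15% lower. At an unadjusted p under 0.05 alone it was again 1 member, where 2.18% of genes were higher and 2.71% lower, and 0.00918% of genes passed the adjusted threshold. Leaving out any single library kept the log2 fold change of *Acadsb* between 0.44 and 0.55.

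*Ivd*, the other acyl-CoA dehydrogenase among the members, was at 41.3, 39.0 and 56.1 in WT and at 40.1, 37.4 and 23.6 in MCK-Musclin BAT. The groups overlapped, and the log2 fold change was -0.44 (SE 0.22, adjusted p = 0.968 with limma). Without MCK-Musclin library 1, *Ivd* too was past the cutoff, lower, with a log2 fold change of -0.58, which made 2 members at the cutoff. The share of all genes in that fit is not given here.

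The genes of the BCKDH complex had overlapping groups in BAT. *Bckdha* was at 90.2, 102.7 and 98.6 in WT and at 107, 99.8 and 92.9 in MCK-Musclin libraries. *Bckdhb* was at 58.1, 54.95 and 64.9 in WT and at 56.8, 60.2 and 67.0 in MCK-Musclin libraries. Their log2 fold changes were 0.04 and 0.05, with 95% intervals from -0.17 to 0.25 and from -0.19 to 0.29. *Dbt* was at 77.0, 65.9 and 75.3 in WT and at 65.8, 72.9 and 84.2 in MCK-Musclin BAT. *Hibadh* was at 87.3, 88.5 and 110.9 in WT and at 93.6, 92.7 and 95.8 in MCK-Musclin BAT, with means of 95.6 and 94.0. The 4 genes that stood apart in iWAT thus had log2 differences between -0.01 and 0.05 in BAT.

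*Bcat2*, *Bckdk* and *Slc25a44* overlapped as well, with log2 fold changes of -0.17, 0.06 and 0.06. *Slc25a44* ranged from 13.2 to 25.0 FPKM in WT and from 14.3 to 25.3 in MCK-Musclin BAT. *Bcat1* was below the filter at 0.0133, 0.0208 and 0.0128 in WT and 0.0861, 0.0793 and 0.0526 in MCK-Musclin libraries. These groups did not overlap, but all values were under 0.1 FPKM. The median log2 fold change of the 9 members was 0.04, against -0.01 over all genes tested, and it lay on either side of 0 when single libraries were left out. Skeletal muscle markers summed to 517 to 822 FPKM in WT and 859 to 1901 in MCK-Musclin BAT, and their part in the differences of *Acadsb* and *Ivd* was not tested.

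**Figure D4:**
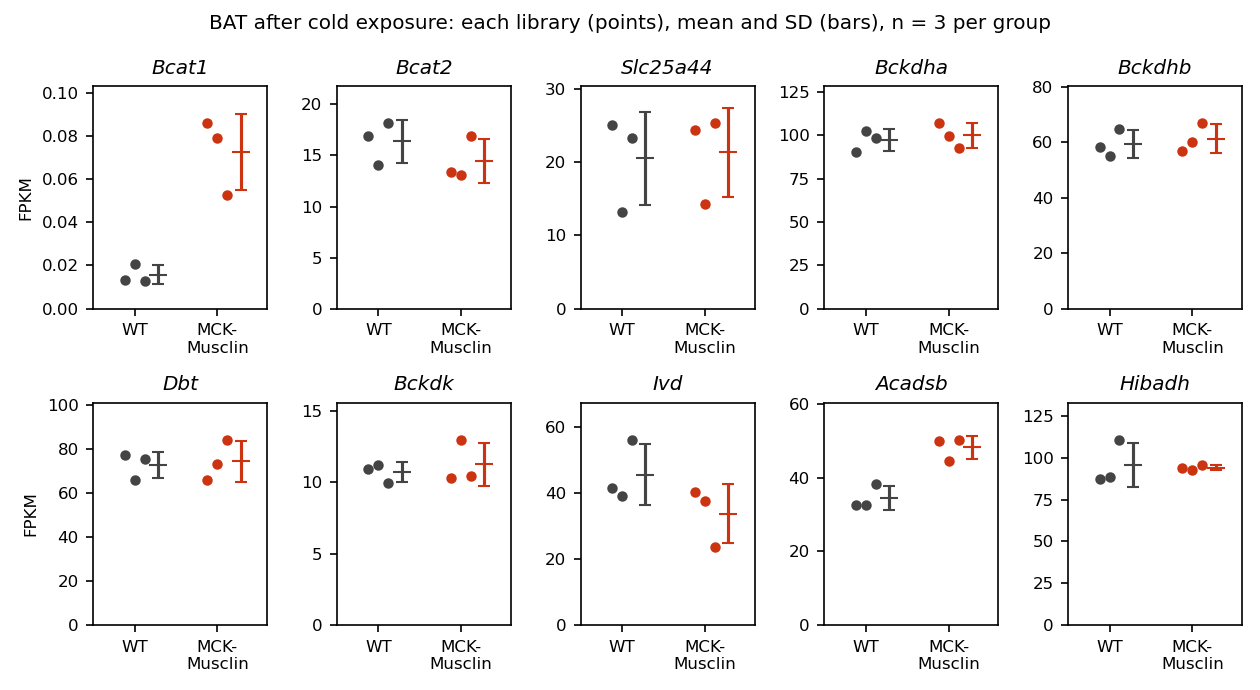
FPKM of the 10 genes in cold-exposed BAT, with 1 point per library for 3 WT (grey) and 3 MCK-Musclin (red) mice and the mean ± SD beside the points, each panel on its own axis from 0. *Acadsb* has all MCK-Musclin points above the WT points, *Bcat1* does so at values under 0.1, and the other 8 panels overlap.

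Of the other pathway genes 20 were tested in BAT, and 0 had an unadjusted limma p under 0.05, where 4.89% of genes did. *Pccb* was lower and *Dld*, the E3 subunit, higher without overlap, with log2 fold changes of -0.21 and 0.12. *Slc7a5*, *Slc7a8* and *Slc43a1* were below the filter in BAT, and *Slc7a5* was at most 0.127 FPKM there.

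Whether the genotype difference itself differed between the tissues was tested as the iWAT difference minus the BAT difference over 9757 genes. No member had an adjusted p under 0.05 (smallest 0.497, *Bckdha*) and 0 had an unadjusted limma p under 0.05, where 0% and 10.1% of genes did, 3.02% with a negative difference. *Bckdha* came closest, with a difference of -0.26 (SE 0.12, adjusted p = 0.497 with limma), followed by *Bckdhb* at -0.29 (SE 0.14, adjusted p = 0.507). For *Hibadh* the difference was -0.24 (95% interval -0.53 to 0.05) and for *Acadsb* -0.45 (-1.01 to 0.11). A difference between the tissues was thus not shown for any member. The labels do not say whether same-numbered iWAT and BAT libraries came from the same mice, and the fit took all 12 as separate. With TPM 4 members, and with median-ratio scaling 3, had an unadjusted limma p under 0.05. The share of all genes under those scalings is not given here, so these counts cannot be set against it.

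**Figure D5:**
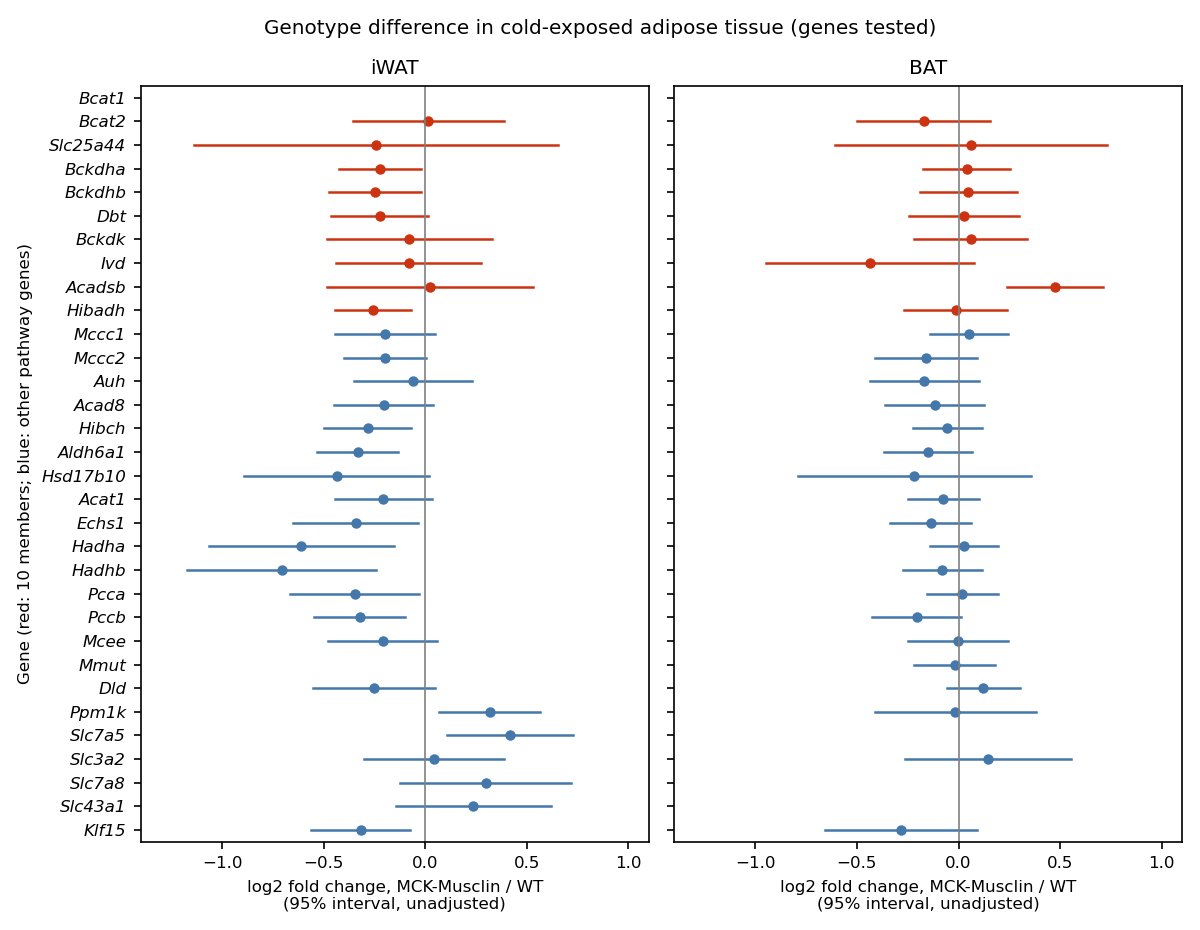
log2 fold change of MCK-Musclin over WT with its unadjusted 95% interval in iWAT (left) and BAT (right), for the members (red) and the other pathway genes (blue) that passed the filter and are reported here. In iWAT most points lie left of 0 with *Hadhb* at -0.71 and *Slc7a5* at 0.42 at the ends, and in BAT most intervals cross 0 apart from that of *Acadsb* at 0.47.

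The tissues also differed in the balance of the steps, whichever the genotype, as a description of tables that were normalized separately. RNA of white fat was extracted with a kit and that of BAT with TRIzol, so tissue and extraction cannot be told apart here. *Bcat2* over *Bckdha* was 1.01 to 1.59 in the 6 cold iWAT libraries and 0.125 to 0.187 in the 6 cold BAT libraries, and *Bckdk* over *Bckdha* was 0.208 to 0.327 and 0.0961 to 0.130. In the 7-tissue set white adipose tissue and BAT were at 0.867 and 0.272 for the first ratio, and at 0.179 and 0.169 for the second. *Bckdha* over *Bckdhb* was below 1 in every iWAT library, at 0.726 to 0.834, and above 1 in every BAT library, at 1.39 to 1.89. In the 7-tissue set it was above 1 in both, at 1.05 in white adipose tissue and 1.37 in BAT.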

How the data were processed

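RNA-Seq of 19 mouse libraries was used. As the authors state, poly(A) RNA was sequenced, reads were filtered with fastp and bowtie2 and aligned with HISAT2 to mm10 (GRCm38) without strand, and FPKM was calculated with StringTie. The authors deposited these FPKM values per gene and library. The submitters' processing notes list HISAT2 2.1.0 and also Cuffdiff. The iWAT table also holds the authors' own comparison (fold changes, p-values, FDR), which was not used. The tissue and BAT files each repeat 287 lines, which were used once.

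MCK-Musclin and WT libraries were compared separately for iWAT and BAT. limma 3.58.1 (eBayes with trend, R 4.3.3) was fitted to log2(FPKM + 1), genes whose mean FPKM fell below 1 were left out, and p-values were adjusted by Benjamini-Hochberg over all remaining genes. The tissue difference was an interaction term over the 12 cold libraries. Ratios were tested by exact permutation, computed with numpy 2.4.6. The fit was tested on simulated data. The 7 tissues were not tested. The authors report that each genotype or treatment was sequenced from biologically independent animals. The labels give only replicate numbers, and p-values measure the spread between libraries. Exon overlaps came from GENCODE on GRCm38, with all 10 members matched by Ensembl ID. Alternatives were other pseudocounts (0.1 and 0.01), filters, scalings, eBayes settings, a replicate block and leaving out each library.

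All 10 members were named, other pathway, comparison and marker genes where a result turned on them, and for *Bcat2* and *Bckdha* the 3 most correlated genes. The members and lists were chosen with earlier results of these data known. One gene of the pathway list entered the counts but is not reported here by name.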

Additional observations from a re-analysis of the deposited data

How the results depend on the processing

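The count of 0 members past an adjusted p of 0.05 in iWAT, in BAT and between them was the same under every alternative run, and so were the counts of 0 members at the cutoff in iWAT and of 0 other pathway genes past the adjusted threshold. Centring on general adipocyte markers moved the iWAT median to -0.0197, the members lower at an unadjusted p under 0.05 to 0, those lower without overlap to 0 and the other pathway genes lower at that p to 0, since the markers were themselves lower in MCK-Musclin iWAT. The last count was 15 with median-ratio scaling and 13 with quantile normalization. Leaving out each library gave 1 to 2 members lower at that p in iWAT and 4 to 11 other pathway genes. In BAT it gave 1 to 2 members at the cutoff and a *Bckdk* to *Bckdha* log2 difference between -0.0835 and 0.13. The BAT median of the members then lay between -0.04 and 0.05. The share of all genes is given beside none of the counts after centring, rescaling or leaving out libraries, so they cannot be set against it.

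The replicate number as a block left 1 member lower at an unadjusted p under 0.05 in iWAT, without the share of all genes beside it. It moved no other count of members. The numbers were not taken to pair the samples: deviations of same-numbered WT and MCK-Musclin libraries correlated at 0.23, 0.06 and 0.11 in iWAT and at -0.0951, -0.00463 and 0.00937 in BAT, and not every library correlated best with its own number.

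Some members changed sign, *Slc25a44* in iWAT among them, whose reported value was -0.24. With median-ratio scaling, quantile normalization and TPM, *Bcat2* in iWAT was at -0.0631, -0.0384 and -0.0386 and *Acadsb* in iWAT at -0.0558, -0.0320 and -0.0307. With quantile normalization and TPM *Hibadh* in BAT was at 0.0114 and 0.0120. Centring on adipocyte markers gave 0.13 for *Bckdk* and 0.12 for *Ivd* in iWAT and 0.11 for *Hibadh* in BAT. Leaving out single libraries in iWAT gave ranges of -0.15 to 0.14 for *Bcat2*, -0.23 to 0.0988 for *Bckdk*, -0.52 to 0.15 for *Slc25a44*, -0.19 to 0.0661 for *Ivd* and -0.24 to 0.21 for *Acadsb*. In BAT the ranges were -0.0117 to 0.0912 for *Bckdha*, -0.0173 to 0.11 for *Bckdhb*, -0.0396 to 0.11 for *Bckdk*, -0.0664 to 0.11 for *Dbt*, -0.21 to 0.31 for *Slc25a44* and -0.0749 to 0.0959 for *Hibadh*. The causes of these sign changes were not tested. *Hibadh*, *Bckdha*, *Bckdhb* and *Dbt* in iWAT and *Acadsb* in BAT kept their direction under every alternative. Because their groups did not overlap, only rescaling of the libraries could have turned the sign. For the other alternatives the direction was fixed beforehand and is no separate result. With 3 libraries a group and no read counts, small differences cannot be resolved.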
